A study of Homo sapiens with 6 samples.

Results

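The proteasome genes of HepG2 cells are described here, set between cells expressing TAF2 and cells expressing enhanced green fluorescent protein (eGFP). They are the genes whose symbol is PSM followed by a letter from A to G and a number, which gave 48 of the 26475 genes of the deposited count table. HepG2 is a human liver cancer line. TAF2 belongs to TFIID, the complex that helps place RNA polymerase II at promoters, and eGFP is a reporter protein. Each group had 3 RNA-seq libraries from growing cultures. How eGFP and TAF2 were brought into the cells, and whether the cells were a pool or a clone, is not given in the sources used here. Whether replicate libraries came from separate cultures is not labelled either, so p-values measure the spread between the libraries only, and part of it may be technical.

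The proteasome is the protease complex that degrades ubiquitin-tagged proteins. Its barrel-shaped core has outer rings of alpha subunits (PSMA), which gate the entry, and inner rings of beta subunits (PSMB), of which PSMB5, PSMB6 and PSMB7 cut peptide bonds. The 19S cap binds ubiquitin chains, removes them and unfolds the substrate with a ring of ATPases (PSMC). Other caps (PSME) open the core without ubiquitin. In immune cells, and in other cells after interferon, PSMB8, PSMB9 and PSMB10 replace PSMB5, PSMB6 and PSMB7. The resulting immunoproteasome supplies peptides for MHC class I. The transcription factor NFE2L1 raises proteasome genes when the proteasome is inhibited, and it binds antioxidant response elements in their promoters.

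With TAF2, the immunoproteasome subunits fell, all 3 of them and by the largest amount of any proteasome group. Most other proteasome genes rose slightly or did not pass the test. Of the 48 genes, 46 could be tested. At an adjusted p of 0.05 (edgeR quasi-likelihood test, Benjamini-Hochberg over all 12902 tested genes), 17 were called higher, 6 lower and 23 were not called. Over all tested genes 43.0% were called, 20.6% higher and 22.4% lower, so the share of proteasome genes called, 23 of 46, was near that of all genes. The called proteasome genes changed by little, with a median absolute log2 fold change of 0.12 against 0.23 for all called genes. Called or not, the medians were 0.07 for tested proteasome genes and 0.13 for all tested genes. Neither comparison was matched for expression level, and smaller changes can be called in abundant genes. Without TAF2 replicate 3 the count of higher genes was 12, and the count of lower genes was 6 without any one library.

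The 6 genes that fell were the 3 immunoproteasome subunits and the 3 proteasome genes of chromosome 11, PSMA1, PSMC3 and PSMD13. Off chromosome 11, 0 of 31 tested genes of the constitutive core and the 19S cap were called lower by edgeR. That 0 follows from leaving out PSMA1, PSMC3 and PSMD13, and is not a separate result. None of the 31 was lower at an unadjusted p under 0.05, and DESeq2 also called 0 lower. In the same set edgeR called 14 higher and DESeq2 11. Over all tested genes off chromosome 11, 21.7% were called higher and 19.3% lower. PSMA8, the alpha subunit of the testis, and PSMB11, the beta subunit of the thymus, had 0 counts in every library. A count of 0 allows up to 3 counts, a level of 0.107 to 0.135 counts per 1e+06 scaled library counts (CPM) depending on the library, counting error only.

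**Figure D1:**
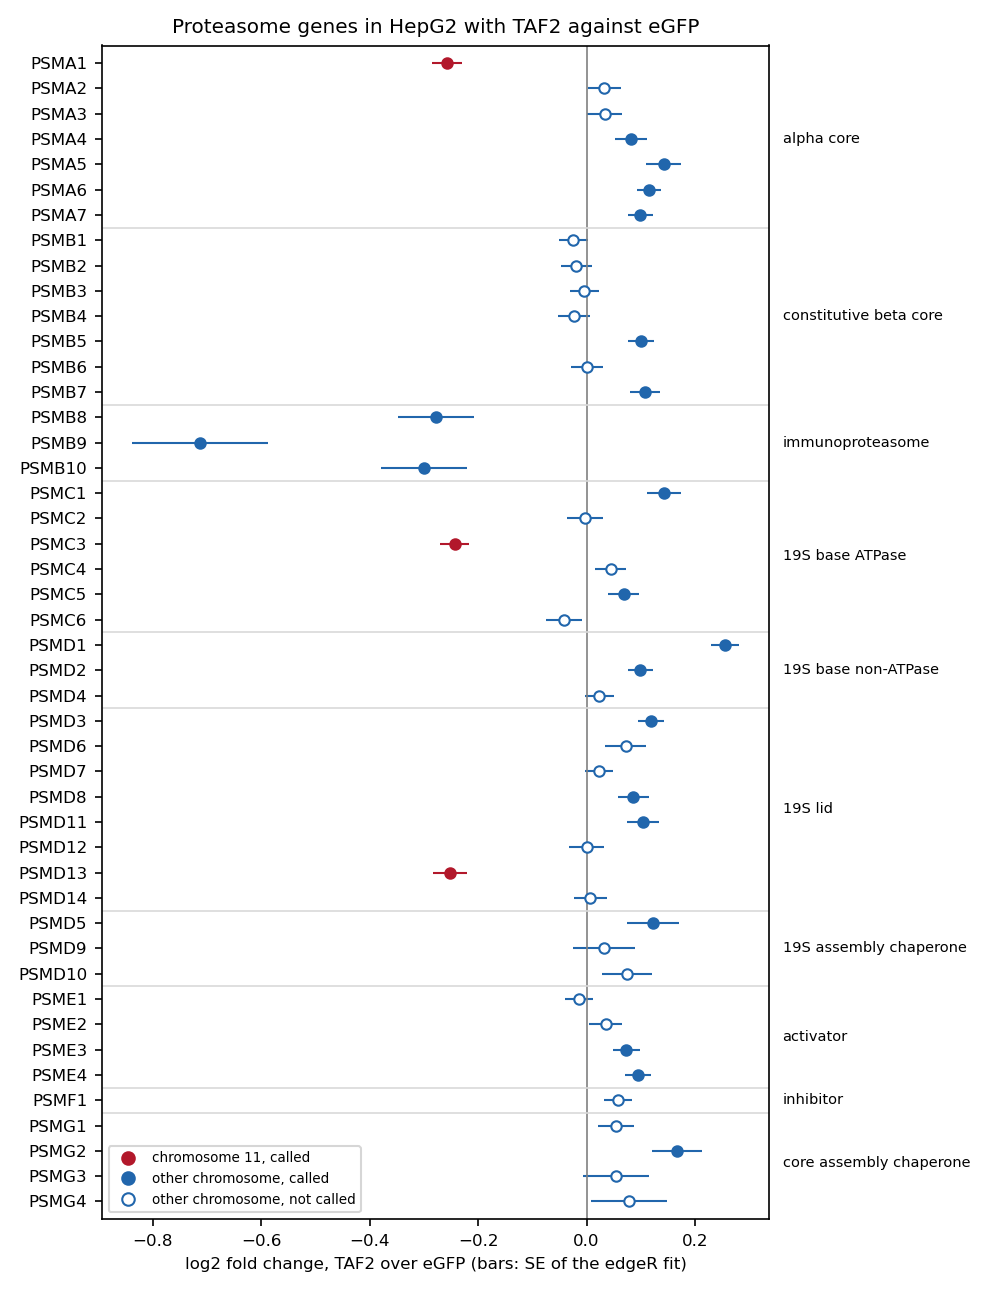
Log2 fold change of the 46 tested proteasome genes, TAF2 over eGFP, on the horizontal axis, with bars for the standard error of the edgeR fit. Filled points passed an adjusted p of 0.05, and red marks chromosome 11. The immunoproteasome subunits and the chromosome 11 genes are the points called below 0, and PSMD1 lies farthest above 0 at 0.26.

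Total counts per library ranged from 22276308 to 28024004. All 8 hepatocyte and HepG2 markers were present, between 58.9 and 23029 CPM as group means. With TAF2, 7 of them were called lower, ALB by 0.62 and APOA1 by 0.82 on the log2 scale, and FGB was called higher (0.64). Over all tested genes 22.4% were called lower and 20.6% higher. ALB, AFP and FGB lie on chromosome 4 and APOA1 on chromosome 11. Proteasome genes aside, the median log2 fold changes of these chromosomes were -0.18 and -0.28. The 8 markers summed to 43397 to 45087 CPM with eGFP and 35279 to 37093 CPM with TAF2. Of 5 immune markers PTPRC and CD3E were at 0 in every library, as were KDR of 4 endothelial markers and DCN and LUM of 5 stromal markers. The endothelial list summed to 0.295 to 1.08 CPM with eGFP and 0.549 to 0.714 CPM with TAF2. The stromal list summed to 0.360 to 0.885 CPM with eGFP and 1.32 to 1.70 CPM with TAF2, nearly all of it COL1A1, which was called higher (log2 change 1.13). The part of these differences in the proteasome results was not tested. TAF2 itself was at 35.8, 40.4 and 37.5 CPM in the eGFP libraries and at 50.1, 48.3 and 47.4 CPM in the TAF2 libraries. The groups did not overlap, and TAF2 rose by 0.36 on the log2 scale (SE 0.046, edgeR adjusted p = 1.44e-08).

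PSMB9, the immunoproteasome counterpart of PSMB6, had 7.86, 6.61 and 5.85 CPM in the eGFP libraries and 3.77, 4.75 and 3.93 CPM in the TAF2 libraries. PSMB8, the counterpart of PSMB5, had 23.9, 22.9 and 22.5 CPM with eGFP and 16.3, 21.2 and 19.6 CPM with TAF2. PSMB10, the counterpart of PSMB7, had 14.9, 12.8 and 14.9 CPM with eGFP and 11.2, 11.3 and 12.2 CPM with TAF2. Every TAF2 library was below every eGFP library for each of the 3 genes, as it was for 26.1% of all tested genes. PSMB9 fell the most, with a log2 change of -0.71 (SE 0.126, edgeR adjusted p = 9.26e-06), or 0.61 of the eGFP level. PSMB8 had -0.28 (SE 0.070, edgeR adjusted p = 0.00169) and PSMB10 had -0.30 (SE 0.079, edgeR adjusted p = 0.00198). TAF2 replicate 1 was the lowest library for PSMB8, and without it the log2 change of PSMB8 was -0.18 and still called.

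These are rare transcripts in HepG2, so their values carry more counting error than those of the other subunits. PSMB9 rested on 93 to 213 counts per library, PSMB10 on 277 to 405 and PSMB8 on 403 to 649. The immune marker list changed too: CD14, a monocyte marker, fell from 2.07 ± 0.338 to 1.03 ± 0.259 CPM (SD, n = 3 each). Of its 5 genes 3 were above 0. The summed list was 1896 to 2009 CPM in eGFP and 2236 to 2288 CPM in TAF2 libraries, nearly all of it lysozyme (LYZ). LYZ went the other way from CD14 and was called higher (log2 change 0.22). The other 4 summed to 2.85 to 3.55 CPM in eGFP and 1.75 to 1.82 CPM in TAF2 libraries. PTPRC and CD3E, which mark white blood cells and T cells, were at 0. The labels name HepG2 as the only cells. The part of these marker changes in the fall of the immunoproteasome was not tested. Fewer cells of a type and less RNA per cell cannot be told apart in bulk RNA.

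Each immunoproteasome subunit was also lower relative to the constitutive subunit it replaces. The count of PSMB8 was 6.88%, 6.93% and 6.84% of that of PSMB5 in the eGFP libraries and 4.61%, 5.90% and 5.35% in the TAF2 libraries. For PSMB9 over PSMB6 the ratio was 6.38% ± 0.875 with eGFP and 3.91% ± 0.571 with TAF2, and for PSMB10 over PSMB7 it was 10.8% ± 0.765 and 8.19% ± 0.222 (SD, n = 3 each). The libraries of the groups did not overlap in any of the 3 ratios. Per kilobase of transcript, PSMB8 stood at 6.14% ± 0.0373 of PSMB5 with eGFP and 4.71% ± 0.580 with TAF2 (SD, n = 3 each). PSMB9 per kilobase went from 7.02% to 4.31% of PSMB6, and PSMB10 from 8.71% to 6.59% of PSMB7. No test was run on the ratios.

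**Figure D2:**
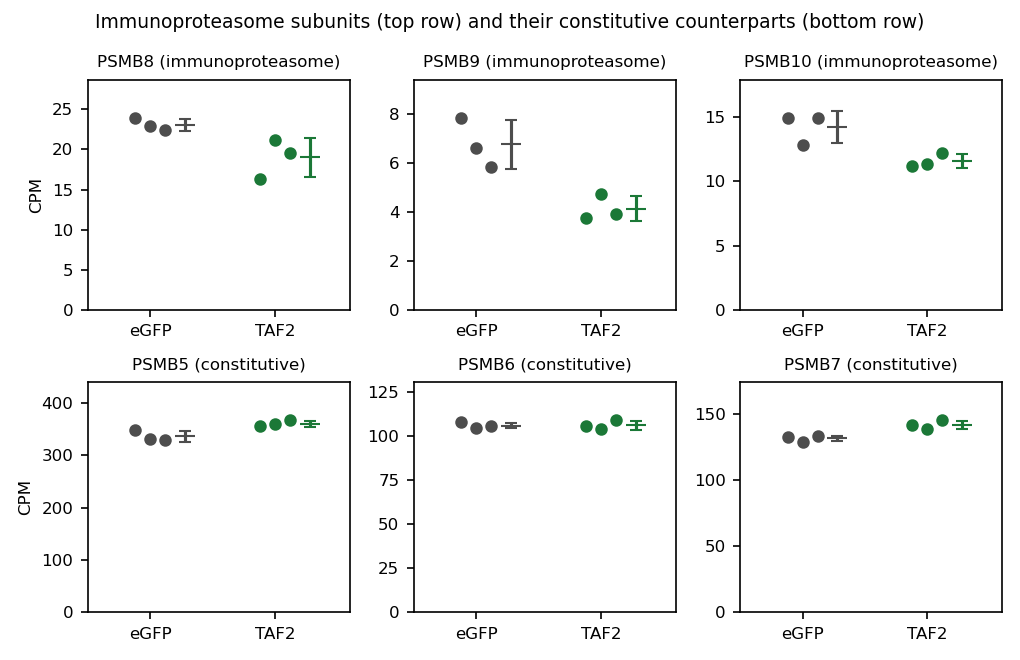
CPM of each library for the 3 immunoproteasome subunits (top) and the constitutive subunits they replace (bottom), by group, with the mean and SD (n = 3) beside the points. Each axis starts at 0 and has its own scale. The TAF2 libraries of PSMB8, PSMB9 and PSMB10 lie below all eGFP libraries, those of PSMB5 and PSMB7 lie above, and those of PSMB6 overlap.

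PSMB8 (chr6:32840717-32844679) and PSMB9 (chr6:32854192-32859851) lie in the MHC region on either side of TAP1, which encodes a subunit of the peptide transporter that feeds MHC class I. PSMB10 (chr16:67934506-67936850) lies elsewhere. The other genes of chromosomes 6 and 16 were not summarised, so the part of these regions in the falls was not tested. The RefSeq ends of TAP1 and PSMB9, which are read in opposite directions, are 488 bases apart (GRCh38.p14). TAP1 had 45.8, 44.7 and 47.8 CPM with eGFP and 41.5, 46.1 and 44.5 CPM with TAF2. The groups overlapped, and the log2 fold change of -0.07 (SE 0.045) was not called. The stretch between their exons in GENCODE release 29, where TAP1 reaches closer to PSMB9, is shown because it separates a gene that was called from one that was not. It is the plus strand of chr6:32853979-32854160, with 70.3% G and C, and capitals mark a match to the antioxidant response element searched below, which reads on the minus strand.
TAP1 to PSMB9: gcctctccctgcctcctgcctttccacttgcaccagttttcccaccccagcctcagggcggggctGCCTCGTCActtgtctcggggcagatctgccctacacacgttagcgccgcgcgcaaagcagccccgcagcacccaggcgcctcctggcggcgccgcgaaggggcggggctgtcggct

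Motifs of interferon signalling were sought in the 250 bases before each RefSeq start, on both strands, because interferon induces these subunits. They were the gamma-interferon motif TTCNNNGAA and the interferon response motif, GAAA followed by 2 bases of any kind and GAAA again. In all 35114 promoter windows of the RefSeq table (GRCh38.p14), 6.57% held the first and 3.02% the second. Of 51 windows of 42 proteasome genes, 7 (13.7%) held the first and 5 (9.80%) the second. The matches at the other 2 immunoproteasome genes are printed with the motif in capitals, PSMB8 on the minus strand at chr6:32844094-32844122, before the downstream of its RefSeq starts and so within its span, and PSMB10 on the minus strand at chr16:67936852-67936881.
PSMB8: aactgtccttTTCTCGGAAaaggcagggg
PSMB10: gggtaaaggcGAAAGCGAAAgcaggaagta
The called rises PSMB5, PSMD3 and PSME3 also held the gamma-interferon motif, and PSMA4 the interferon response motif. A match is a string of letters and not a site shown to be bound.

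Genes of interferon signalling and peptide loading were called in both directions. TAP2, the partner of TAP1 in the peptide transporter, was called higher and TAPBP lower, while TAP1, IRF1, IRF9, NLRC5 and B2M were not called. Among all tested genes 43.0% were called. TAP2, at 0.10 with overlapping libraries, was not called by DESeq2, without the genes of chromosomes 4 and 11, nor without eGFP replicate 1 (0.10) or 3 (0.08), nor without TAF2 replicate 1 (0.09) or 3 (0.09). TAPBP, the tapasin that loads peptides onto MHC class I, had 89.3, 90.3 and 94.5 CPM with eGFP and fell to 82.0, 83.9 and 81.7 CPM with TAF2, by 0.15 on the log2 scale. IRF1 and NLRC5 activate genes of MHC class I presentation. IRF1 (-0.19, SE 0.100) and NLRC5 (-0.31, SE 0.159) were low, at 7.67 and 3.53 CPM with eGFP, and were not called.

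The alpha ring rose in 4 of 7 tested genes and fell in 1, beside 20.6% and 22.4% of all tested genes. PSMA6, the most abundant alpha transcript per kilobase, had 346, 339 and 335 CPM with eGFP and 366, 368 and 369 CPM with TAF2. PSMA5 had 117, 110 and 107 CPM with eGFP and 128, 120 and 121 CPM with TAF2. PSMA7 had 308, 296 and 301 CPM with eGFP and 319, 324 and 326 CPM with TAF2. For all 3 genes the TAF2 libraries lay above the eGFP libraries without overlap, as they did for 24.5% of all tested genes. In the edgeR fit, from which single-gene percent changes are taken, they rose by 8.26% for PSMA6, 10.4% for PSMA5 and 7.12% for PSMA7. Their log2 fold changes were 0.11 (SE 0.022), 0.14 (SE 0.033) and 0.10 (SE 0.023), with edgeR adjusted p of 4.55e-05, 0.000580 and 0.000488. PSMA4 also rose (0.08), but was not called by DESeq2 (0.09), without the genes of chromosomes 4 and 11 (0.07), or without eGFP replicate 3 (0.07) or TAF2 replicate 3 (0.07). PSMA2 and PSMA3, both at 0.03, were not called.

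PSMA1 was the alpha subunit that fell. It had 136, 137 and 142 CPM with eGFP and 116, 116 and 116 CPM with TAF2, with no overlap (log2 change -0.26, SE 0.028, edgeR adjusted p = 2.86e-10). PSMA1 lies at chr11:14504876-14643662. The other 2 proteasome genes of that chromosome fell by nearly the same amount. PSMC3 (chr11:47418775-47426439), an ATPase of the cap, had 187, 183 and 183 CPM with eGFP and 151, 158 and 158 CPM with TAF2 (-0.24, SE 0.026). PSMD13 (chr11:236976-252984), a lid subunit, had 96.7, 96.6 and 93.6 CPM with eGFP and 80.2, 81.0 and 79.7 CPM with TAF2 (-0.25, SE 0.032). Over the 724 other tested genes of chromosome 11 the median log2 fold change was -0.28, with 91.2% of them below 0 and 73.9% called lower. The 3 proteasome genes therefore lay near the median of their chromosome, and whether the chromosome's shift accounts for their fall was not tested.

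Among the beta subunits of the constitutive core 2 of 7 rose and 0 fell, by edgeR and by DESeq2. Both that rose cut peptide bonds. Over all tested genes edgeR called 20.6% higher and 22.4% lower. PSMB5, with chymotrypsin-like activity, had 348, 331 and 328 CPM with eGFP and 355, 359 and 366 CPM with TAF2. PSMB7, with trypsin-like activity, had 132, 129 and 133 CPM with eGFP and 141, 138 and 145 CPM with TAF2. The groups did not overlap for either gene, and the log2 changes were 0.10 (SE 0.024, edgeR adjusted p = 0.000595) and 0.11 (SE 0.028, edgeR adjusted p = 0.00151). PSMB6, the third catalytic subunit, with caspase-like activity, had 108, 105 and 106 CPM with eGFP and 106, 104 and 109 CPM with TAF2, a log2 fold change of 0.00 (SE 0.030). PSMB1, PSMB2, PSMB3 and PSMB4, which complete the ring, had overlapping libraries and fold changes from -0.02 to 0.00.

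In the 19S cap 8 of 20 genes rose and 2 fell, the latter being PSMC3 and PSMD13. Of all tested genes 20.6% were called higher and 22.4% lower. PSMD1, a large scaffold of the base, rose the most of all proteasome genes. It had 167, 173 and 168 CPM with eGFP and 199, 205 and 201 CPM with TAF2. The groups were well apart, and the log2 change was 0.26 (SE 0.025, edgeR adjusted p = 3.22e-11), or 19.4% more. PSMD1 lies at chr2:231056867-231172827. Over the 214 other tested genes of chromosome 2 from 190 Mb onward, a limit taken from earlier results of these data, the median was 0.21, with 85.5% above 0. Its part in the rise of PSMD1 was not tested. PSMD14, the lid enzyme that cuts ubiquitin off the substrate, is also on chromosome 2 but at chr2:161308425-161411717, and was not called (0.01, SE 0.030). The 633 other tested genes of that chromosome below 190 Mb had a median of -0.06.

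Of the base ATPases, which pull the substrate into the core, 2 of 6 rose and 1 fell. Over all tested genes 20.6% were called higher and 22.4% lower. PSMC1 had 94.5, 93.5 and 93.7 CPM with eGFP and 101, 103 and 107 CPM with TAF2, with no overlap (log2 change 0.14, SE 0.031, edgeR adjusted p = 0.000217). PSMC5 was just past the threshold at 0.07 (SE 0.028, edgeR adjusted p = 0.0451). It was not called by DESeq2, without the genes of chromosomes 4 and 11, or when 1 of 4 libraries was left out. These were eGFP replicate 2 (0.07) or 3 (0.07) and TAF2 replicate 1 (0.07) or 3 (0.05). PSMC2, PSMC4 and PSMC6 lay between -0.04 and 0.04 and were not called.

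Among the other base subunits PSMD2, which docks ubiquitin receptors, had 348, 337 and 334 CPM with eGFP and 361, 362 and 368 CPM with TAF2 (log2 change 0.10, SE 0.023, edgeR adjusted p = 0.000442). PSMD4, a ubiquitin receptor of the base, was not called (0.02). It was the only proteasome gene with counts that were not whole numbers, which RSEM gives when reads are shared with another sequence. In the lid 3 of 8 genes rose and 1 fell, beside 20.6% and 22.4% of all tested genes. PSMD3 had 205, 202 and 205 CPM with eGFP and 220, 220 and 224 CPM with TAF2, a rise of 8.59% with no overlap (edgeR adjusted p = 8.22e-05). PSMD11, a lid scaffold, rose by 7.52% and PSMD8 by 6.17%. PSMD8 was not called without TAF2 replicate 3 (0.07 on the log2 scale). PSMD6, PSMD7, PSMD12 and PSMD14 lay between 0.00 and 0.07 and were not called.

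Among the 48 genes, the chaperones that assemble the cap and the core were all above 0, as were 6369 of all 12902 tested genes. Of the cap chaperones 1 of 3 was called higher, of the core chaperones 1 of 4, and 0 lower in either. Over all tested genes 20.6% were called higher and 22.4% lower. PAAF1, which binds base ATPases but is not among the 48, fell and is given below. PSMD5, which holds ATPases of the base during assembly, had 34.3, 34.1 and 32.0 CPM with eGFP and 35.2, 37.1 and 36.9 CPM with TAF2 (log2 change 0.12, SE 0.048, edgeR adjusted p = 0.0360). Its call was lost with DESeq2, without the genes of chromosomes 4 and 11, and without eGFP replicate 3 (0.09), TAF2 replicate 2 (0.11) or TAF2 replicate 3 (0.11). PSMD9 (0.03) and PSMD10 (0.07) were not called. PSMG2, which helps form the alpha ring, had 38.2, 38.6 and 38.9 CPM with eGFP and 44.2, 45.1 and 40.7 CPM with TAF2. It rose by 12.2% without overlap (log2 change 0.17, SE 0.046, edgeR adjusted p = 0.00284). PSMG1, PSMG3 and PSMG4, from 0.05 to 0.08, were not called. In the count of 19S genes called higher, 8 became 5 without TAF2 replicate 3.

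Of the caps that open the core without ubiquitin, 2 of 4 rose and 0 fell, by edgeR and by DESeq2. Of all tested genes edgeR called 20.6% higher and 22.4% lower. PSME4, the nuclear activator PA200, had 261, 266 and 257 CPM with eGFP and 272, 284 and 280 CPM with TAF2. PSME3, the nuclear PA28 subunit, had 205, 213 and 211 CPM with eGFP and 217, 220 and 224 CPM with TAF2. Both were higher in every TAF2 library, by 0.09 (SE 0.024, edgeR adjusted p = 0.00134) and 0.07 (SE 0.025, edgeR adjusted p = 0.0149) on the log2 scale. PSME3 was not called without eGFP replicate 1 (0.06), TAF2 replicate 3 (0.06) or the genes of chromosomes 4 and 11 (0.06).

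The interferon-inducible pair PSME1 and PSME2, which form the PA28 cap that works with the immunoproteasome, were not called. PSME1 had 175, 176 and 175 CPM with eGFP and 173, 176 and 173 CPM with TAF2 (log2 change -0.01, SE 0.025). PSME2 had 122, 114 and 115 CPM with eGFP and 120, 117 and 122 CPM with TAF2 (0.04, SE 0.030). The libraries of the groups overlapped for both genes. The promoter window of PSME2 held the interferon response motif, as that of PSMB10 did. PSMF1, an inhibitor of the core, had 211, 203 and 207 CPM with eGFP and 207, 218 and 220 CPM with TAF2, and was not called (0.06, SE 0.026). It was called with upper-quartile scaling (0.07), with no filter (0.07), and without eGFP replicate 1 (0.07) or TAF2 replicate 1 (0.09).

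Summed over its genes, each group other than the immunoproteasome was a few percent higher with TAF2. The constitutive core went from 2376 ± 38.8 to 2453 ± 19.6 CPM (3.23% more), the 19S cap from 2422 ± 18.0 to 2501 ± 19.7 CPM (3.26% more) and the activators from 764 ± 5.51 to 793 ± 9.89 CPM (3.89% more; SD, n = 3 each). The core assembly chaperones rose from 152 ± 1.17 to 161 ± 1.67 CPM. The immunoproteasome summed to 44.1 ± 2.32 CPM with eGFP and 34.8 ± 3.06 CPM with TAF2 (SD, n = 3), a change of -21.2%. The libraries did not overlap in these 5 sums, and no test was run on them. For the constitutive core the gap was small, with 2420 CPM in the highest eGFP and 2436 CPM in the lowest TAF2 library. Without the genes of chromosomes 4 and 11, log2 fold changes had a median shift of -0.016. The sums were made under the main scaling only.

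**Figure D3:**
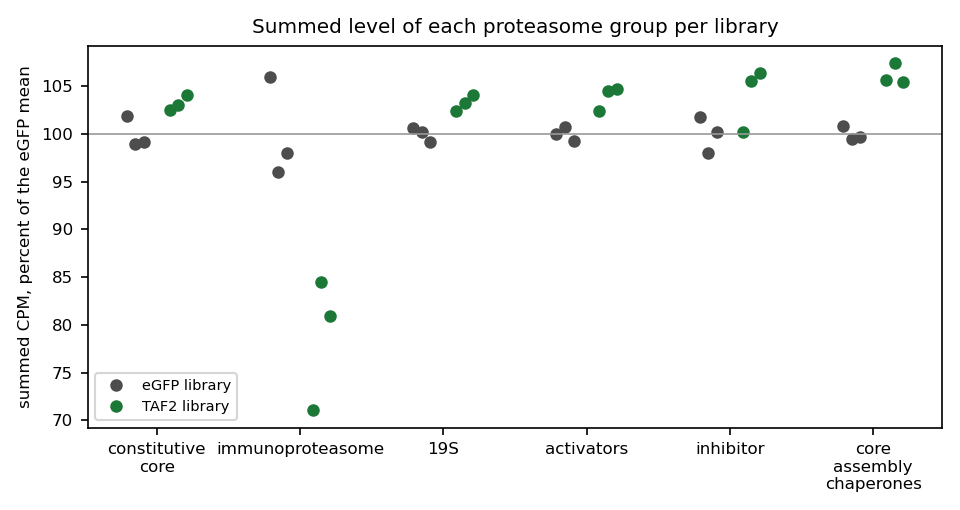
Summed CPM of each proteasome group per library, as percent of the mean of the 3 eGFP libraries (line at 100), on an axis that does not start at 0. Points are libraries, grey for eGFP and green for TAF2. The immunoproteasome lies about 21.2% lower with TAF2, while the core, cap and activator sums lie 3.23% to 3.89% higher and the inhibitor overlaps.

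NFE2L1 and several genes that control it fell. NFE2L1 had 398, 385 and 392 CPM with eGFP and 321, 326 and 332 CPM with TAF2 (log2 change -0.26, SE 0.023, edgeR adjusted p = 6.3e-13). DDI2, the protease that cuts NFE2L1 into its active form, had 48.1, 45.3 and 48.2 CPM with eGFP and 34.1, 34.0 and 33.8 CPM with TAF2 (-0.48, SE 0.045, edgeR adjusted p = 6.91e-12). NGLY1, which removes its sugar chains, fell by 0.20 (SE 0.041). Every TAF2 library was below every eGFP library for each of these 3 regulators, as it was for 26.1% of all tested genes. SYVN1, a ubiquitin ligase that marks NFE2L1 for degradation, fell by 0.29, and its partner SEL1L (-0.01) and the extraction ATPase VCP (0.04) were not called. Of these 6 regulators 4 were called lower and 0 higher by edgeR, beside 22.4% and 20.6% of all tested genes. DESeq2 also called 0 higher, and 0 were higher at an unadjusted p under 0.05. SYVN1 is on chromosome 11. DDI2 is at chr1:15617458-15669044, and the 314 tested genes of the first 30 Mb of chromosome 1, DDI2 among them, had a median of -0.17. This 30 Mb limit was set by hand, and the rest of chromosome 1 was not summarised. The part of the region in the fall of DDI2 was not tested. NFE2L1 is at chr17:48048359-48061545 and NGLY1 at chr3:25718944-25790039. The other genes of chromosomes 17 and 3 were not summarised, so the part of these regions was not tested.

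The antioxidant response element was searched as TGACNNNGC on both strands in the same promoter windows. It stood in 13 of 51 windows of the 42 proteasome genes with an entry (25.5%), against 10.9% of all 35114 windows. No match of this element and the 2 interferon motifs overlapped in the proteasome genes. Of the 13 genes 6 were called higher, 1 lower (PSMB9) and 6 were not called, while of all tested proteasome genes 17 of 46 were called higher. The 6 became 3 with DESeq2, without the genes of chromosomes 4 and 11, without eGFP replicate 3 and without TAF2 replicate 3, as PSMA4, PSMC5 and PSMD5 lost their calls. The matches of the 6 higher genes are printed in the direction of the motif, with the motif in capitals, to show the sequence they share. They lie at chr15:78540650-78540678 (plus), chr17:63827654-63827682 (minus), chr17:39980760-39980788 (plus), chr9:120843038-120843066 (minus), chr2:53971009-53971037 (plus) and chr18:12658689-12658717 (plus), in the order printed.
PSMA4: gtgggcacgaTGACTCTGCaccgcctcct
PSMC5: agggcggcgcTGACACAGCagatccggtc
PSMD3: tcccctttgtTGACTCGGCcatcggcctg
PSMD5: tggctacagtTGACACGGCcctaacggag
PSME4: gctctgctggTGACGCTGCagccgccggg
PSMG2: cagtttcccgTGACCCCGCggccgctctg
PSMD1 and PSMA5, which also rose, had no match. No match says only that these letters are not in the window.

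Other factors of the ubiquitin-proteasome pathway, taken from a list of 40 genes that includes the interferon and NFE2L1 genes above, were called higher in 15 and lower in 8, against 20.6% and 22.4% of all tested genes. The share called lower was thus near that of all genes. Of 10 further subunits and associated factors 4 rose and 1 fell. AKIRIN2, which carries proteasomes into the nucleus, had 52.9, 52.3 and 52.0 CPM with eGFP and 61.3, 61.3 and 60.7 CPM with TAF2 (log2 change 0.22, SE 0.038, edgeR adjusted p = 6.75e-06). ADRM1, a ubiquitin receptor of the cap, rose by 0.14 (SE 0.025). PAAF1, which binds base ATPases, fell from 30.8 ± 1.17 to 23.4 ± 1.36 CPM (SD, n = 3 each; -0.39), and is on chromosome 11. POMP, the maturation factor of the core, was at 0.05 (SE 0.039) and was not called.

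Factors that bring substrates to the proteasome rose in 6 of 10 genes and fell in 0 by edgeR, and DESeq2 called 5 higher and 0 lower. At an unadjusted p under 0.05 edgeR also gave 0 lower. Of all tested genes edgeR called 20.6% higher and 22.4% lower. ZFAND5, which stimulates the proteasome, had 104, 107 and 108 CPM with eGFP and 122, 126 and 125 CPM with TAF2 (log2 change 0.22, SE 0.029, edgeR adjusted p = 1.89e-08). The shuttle proteins UBQLN1 (0.19, SE 0.025) and RAD23B (0.13, SE 0.023) rose as well. ZFAND5, UBQLN1 and RAD23B all lie on chromosome 9, whose other genes were not summarised. The part of that chromosome in their rise was not tested. The other delivery genes called higher, UFD1L, NPLOC4 and UBQLN2, lie on chromosomes 22, 17 and X. Of the ubiquitin genes, UBB had 561, 534 and 527 CPM with eGFP and 478, 472 and 471 CPM with TAF2 (-0.19). Its groups did not overlap. UBA6, an enzyme that activates ubiquitin, fell by 0.22 and lies on chromosome 4, where the 415 tested genes had a median of -0.18.

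**Figure D4:**
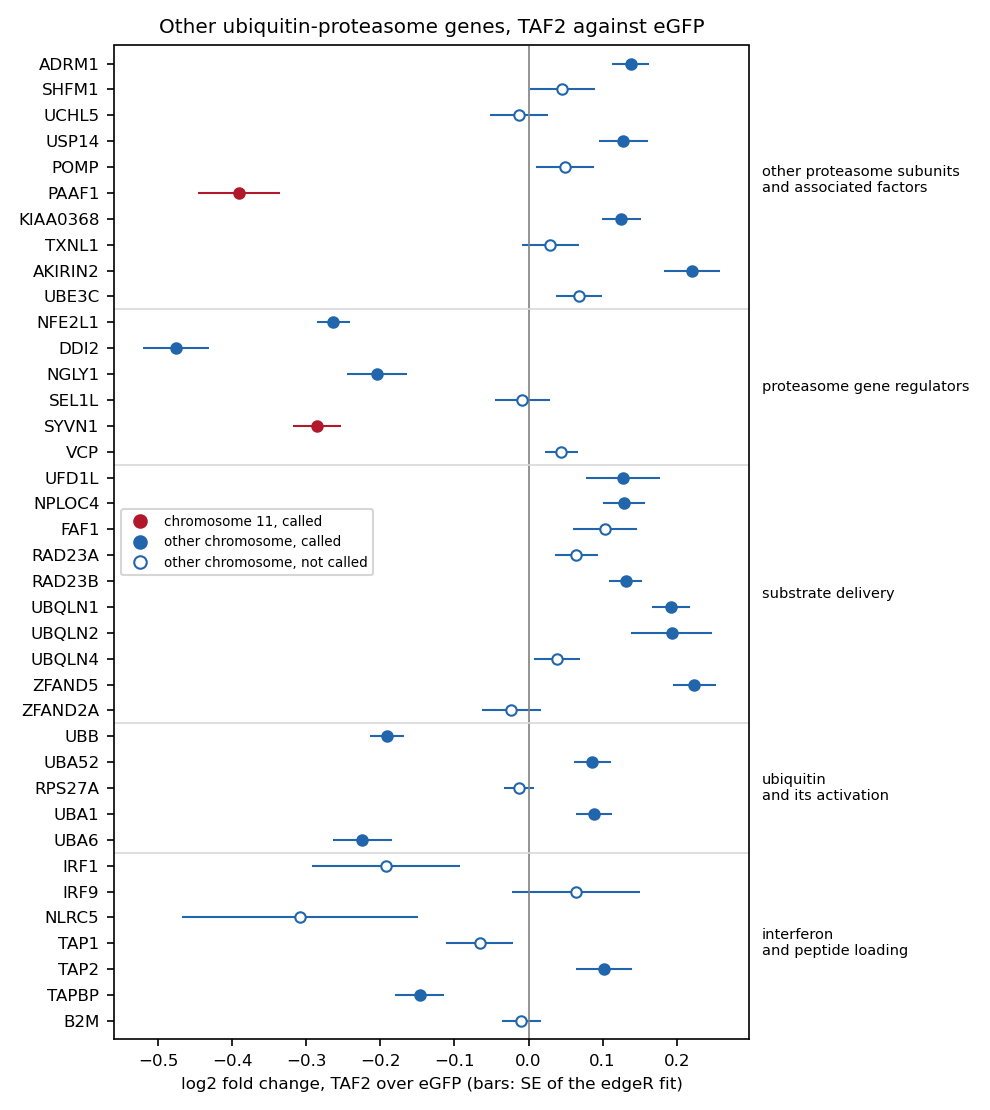
Log2 fold change, TAF2 over eGFP, of 38 other genes of the ubiquitin-proteasome pathway, with bars for the standard error of the edgeR fit. Filled points passed an adjusted p of 0.05, and red marks chromosome 11. DDI2 lies lowest at -0.48, and of the substrate delivery genes 6 are filled and above 0.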

How the data were processed

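Expected counts per gene were deposited by the authors without normalization, and RSEM and hg38 are named per the submitters' processing notes. Per the labels' protocols, libraries were made with a TruSeq RNA kit from total RNA. No source used here gives versions, aligner, annotation or strand setting, so reads of overlapping and antisense genes cannot be told apart. The 5 antisense rows of proteasome genes stayed at or below 12.6 CPM. Some accessions of PSMB8, TAP1 and TAP2 carry an added number whose meaning is not given in the sources used here. Columns were matched to libraries by name, and 0 per-sample columns were unused.

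Counts were rounded, filtered (filterByExpr), scaled by TMM (factors 0.998 to 1.003) and tested with edgeR 4.0.16 in R 4.3.3 (glmQLFit, robust, group only) over 12902 genes. SE is the log2 fold change over the root of F. The common dispersion, a coefficient of variation of 2.75%, is small and lets small changes be called. The test was checked on simulated counts. Alternatives included DESeq2 1.42.0, other scalings and filters, a 1.5-fold test and leaving out libraries. Replicates differed by more than counting noise (chi-square per degree of freedom 1.95 to 5.69). Per the labels' protocols libraries went through 2 rounds of sequencing, how these fall over the groups is not given in the labels, and no other batch is named. Coordinates and promoters are RefSeq's on GRCh38.p14 (matched for 99.8% of tested genes), and lengths are means over GENCODE 29 transcripts linked to the listed accessions.

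Members and lists were chosen with earlier results of these data known. The named genes were TAF2, all immunoproteasome and activator genes, up to 4 called genes with the smallest p plus the largest change in each other group, and up to 3 called genes per related list. Other genes named with values were chosen after their values were seen. Results for 2 genes of the related list are not reported here, though the counts over the list include them.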

Additional observations from a re-analysis of the deposited data

How the results depend on the processing

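Tested against a change of 1.5-fold (glmTreat), 0 proteasome genes were called higher and 0 lower. This holds for the constitutive core, immunoproteasome, 19S cap, activators and core assembly chaperones, and likewise 0 of the related genes were called either way. At an unadjusted p under 0.05 glmTreat also gave 0 proteasome genes, while DESeq2 without the size limit called 14 higher and 6 lower. All genes called by glmTreat were 153 higher and 220 lower. Without the genes of chromosomes 4 and 11, proteasome genes called lower were 3, those of the constitutive core and the 19S cap 0, activators called higher 1 and related genes called lower 5. The falls in these counts come in part from the genes left out.

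Leaving out each library in turn, proteasome genes called higher ranged from 12 to 17, 19S genes called higher from 5 to 8 and activators called higher from 1 to 2. Genes called lower were 6 in each of these fits, and the immunoproteasome kept 3 of 3. Of 568 fold changes of named genes under alternatives, 0 changed sign, 64 lost and 4 gained a call, 38 of the losses under glmTreat. Under all alternatives PSMB8 ranged from -0.36 to -0.18, PSMB9 from -0.82 to -0.58 and PSMB10 from -0.36 to -0.26. Other scalings moved the median of all genes by at most 0.014. Leaving out the genes of chromosomes 4 and 11 moved it by -0.016. Replicate numbers did not pair the libraries (correlations of -0.0981, -0.114 and -0.0976). With the replicate block 15 proteasome genes were called higher and 6 lower, and PSMC5 and PSMD5 lost their calls. Depth limits PSMB9 most, with 93 counts in its lowest library.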
